A study of Mus musculus with 3 samples.

Results

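The genes that build cholesterol and move it in lipoproteins were examined in mesangial cells sorted from adult mouse kidneys. A fixed list of 35 genes was used, and 33 of them were measured, out of 18687 named genes outside the reference families described below. The measured genes were 15 enzymes of cholesterol synthesis, 5 sterol-sensing genes, 5 lipoprotein and lipid receptors, 5 genes of efflux and apolipoproteins, and 3 genes of lipolysis, lipid transfer and ester turnover. Acat2, for the cytosolic thiolase that begins the pathway, and Soat1, for the enzyme that esterifies cholesterol, were not analysed here. Each gene was represented by its probe set with the highest mean.

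Mesangial cells are contractile, pericyte-like cells between the capillary loops of the glomerulus. All 3 samples were of 1 group: adult male CD-1 mice carrying Tg(Meis1-EGFP)FO156Gsat, a bacterial artificial chromosome transgene in which Meis1 regulatory sequence drives a green fluorescent protein. Per the labels, each sample was 1 kidney, not pooled, and the source was glomerular together with extraglomerular mesangium. Whether different mice gave the kidneys is not stated in the labels, and part of the spread between samples may be technical. No other cell population or treatment was profiled, and no contrast between conditions was possible.

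Cells make cholesterol from acetyl-CoA through mevalonate, farnesyl diphosphate, squalene and lanosterol. When membrane sterol is low, Scap carries the SREBP transcription factors out of the endoplasmic reticulum and the synthesis genes are switched on, and Insig proteins hold the complex back when sterol is high. Cholesterol also enters through lipoprotein receptors and leaves through ABC transporters onto apolipoproteins. The mesangium is separated from the capillary lumen by fenestrated endothelium, with no basement membrane in between.

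All values are deposited log2 probe set signals, printed for samples 1, 2 and 3 in that order or as the mean ± SD over n = 3. Background was set from 1267 probe sets for genes not expected in kidney, namely keratin-associated proteins and the olfactory, vomeronasal and trace amine receptors. Genes whose signal exceeded the 95th percentile of these probe sets on all 3 arrays were called above the threshold. These thresholds were 7.48, 7.46 and 7.41. A second call used the thresholds raised by 1, and genes between the calls lay close to background. Because affinity varies from probe set to probe set, signals of different genes are not ranked by amount of transcript. Many probe sets carried 1 identical value on all 3 arrays: 14 of the 33 measured genes (42.4%) did so, against 51.1% of all named genes. A further 7 (21.2%, against 27.7%) shared a value on exactly 2 arrays, and 12 (36.4%, against 21.3%) had 3 different values. An SD of 0.00 for such a gene does not mean that it was measured without error.

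Of 16 measured mesangial markers 15 lay above the raised threshold, among them the integrin gene Itga8 at 12.96 ± 0.01 and the growth factor gene Ptn at 13.10 ± 0.12. Tbx18, at 6.12 in each sample, was the exception. Markers of other cells also passed. Of all named genes 58.0% lay above the threshold and 32.7% above the raised one. Of 15 endothelial markers 14 (93.3%) and 10 (66.7%) did, and of 14 macrophage markers 5 (35.7%) and 2 (14.3%). Of 6 podocyte markers 4 (66.7%) and 2 (33.3%) did, and of 7 proximal tubule markers 4 (57.1%) and 0. Of 7 adipocyte markers 4 (57.1%) and 1 (14.3%) did, and of 8 hepatocyte markers 2 (25%) and 0. In a sorted bulk sample, few cells with much of a transcript and many cells with little of it cannot be told apart.

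Of the 33 cholesterol and lipoprotein genes, 25 (75.8%) lay above the threshold on all 3 arrays, against 58.0% of all named genes. Above the raised threshold lay 15 (45.5%), against 32.7%. The median distance from the threshold, averaged over the arrays, was 0.96 for the 33 genes and 0.35 for all named genes. These are descriptions of the list without a test. The 8 genes not above the threshold were Idi1, Lss, Dhcr7, Lrp8, Cd36, Apob, Apod and Nceh1. The plot of the signal by gene and sample shows the 5 sterol-sensing genes together to the right of the raised threshold and the enzymes mostly between the thresholds.

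**Figure D1:**
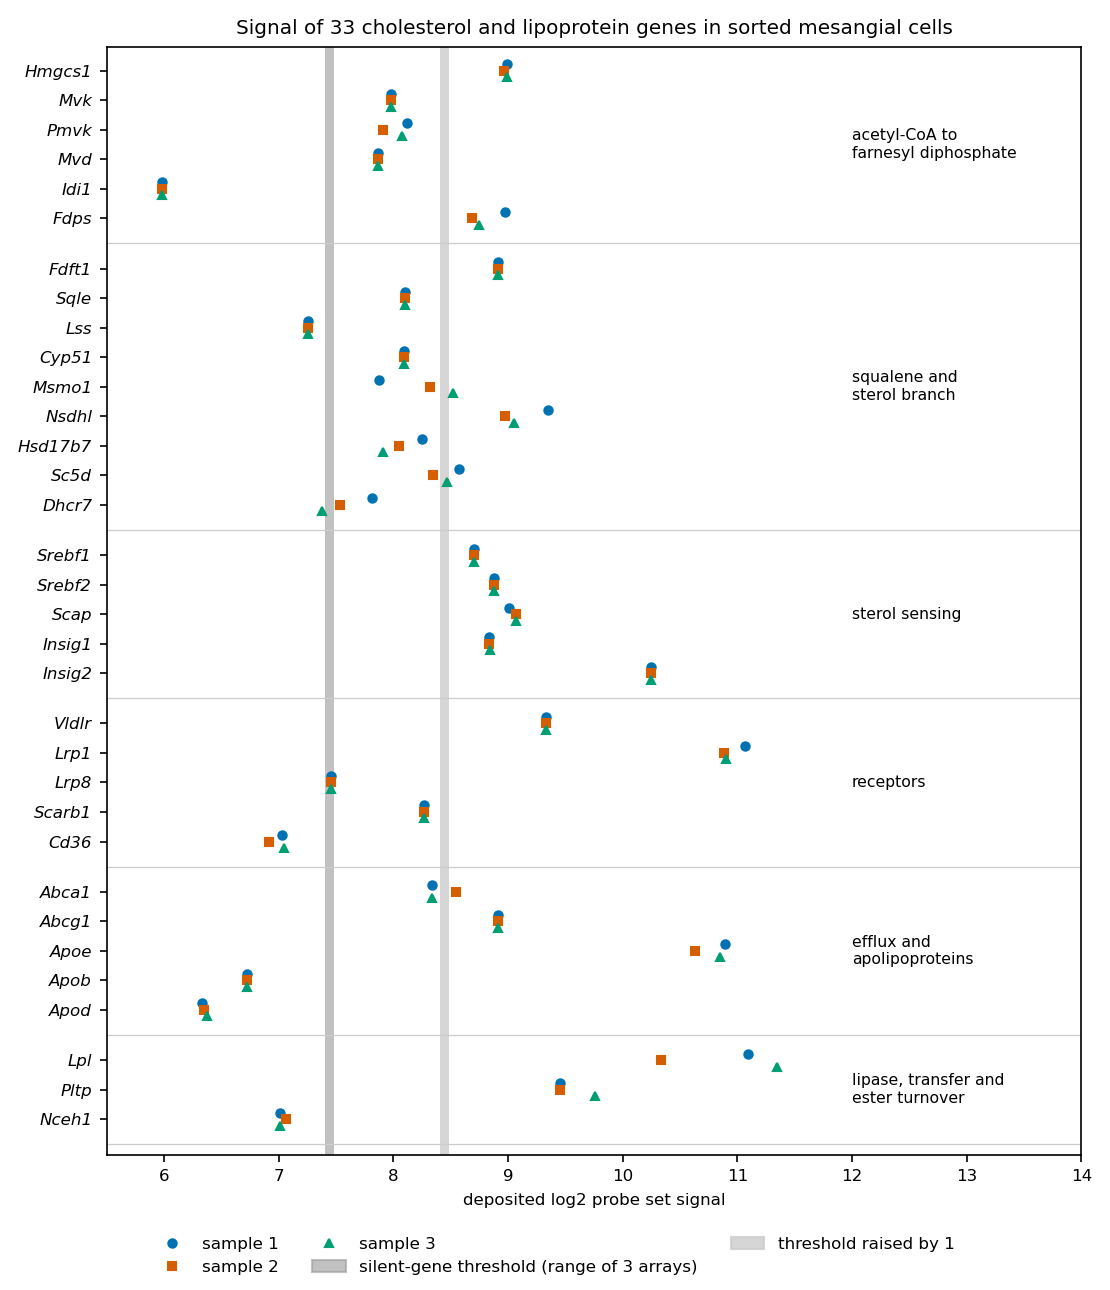
Deposited log2 probe set signal (x axis) of the 33 measured genes (rows, by role) in samples 1 (circles), 2 (squares) and 3 (triangles). The dark and light bands span the 3 array thresholds and the thresholds raised by 1. Insig2, Lrp1, Apoe and Lpl reached 10 or more in every sample, and Idi1 lay lowest at 5.99.

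Of the 6 enzymes that turn acetyl-CoA units into farnesyl diphosphate, 5 lay above the threshold, 83.3% against 58.0% of all named genes. Above the raised threshold lay 2 of 6 (33.3%, against 32.7%). Hmgcs1, for the synthase that makes HMG-CoA, had 8.99, 8.97 and 8.99. All 3 samples lay more than 1 above the threshold and within 0.022 of each other. Fdps, for the synthase that joins isoprene units into farnesyl diphosphate, had 8.97, 8.69 and 8.74. It was highest in sample 1, and every sample lay above the raised threshold.

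The kinases and the decarboxylase between them were closer to background. Mvk, which phosphorylates mevalonate, had 7.98 in each sample. Pmvk, which adds the next phosphate, had 8.12, 7.91 and 8.08. Mvd, whose product yields isopentenyl diphosphate, had 7.87 in each sample. All of these values lay above the threshold and below the raised threshold. Idi1, for the isomerase that turns isopentenyl into dimethylallyl diphosphate, stood apart at 5.99 in each sample. Its other probe set, at 5.85, 5.88 and 5.88, was not above the threshold on any array either, so both probe sets of the gene were at background.

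In the branch from squalene to cholesterol 7 of 9 enzymes lay above the threshold, 77.8% against 58.0% of all named genes. The raised threshold was passed by 2 of 9 (22.2%, against 32.7%). Fdft1, for squalene synthase, the enzyme that commits farnesyl diphosphate to sterols, had 8.91 in each sample. A second Fdft1 probe set had 8.22, 8.27 and 8.22, above the threshold and below the raised one, so the call on the raised threshold rested on the choice of probe set. Nsdhl, for the dehydrogenase that helps to strip methyl groups from lanosterol derivatives, had 9.34, 8.97 and 9.06. Sample 1 was the highest, by a factor of 1.29 over sample 2, and all samples lay above the raised threshold.

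Msmo1, for the methylsterol oxidase that acts before Nsdhl, had 7.87, 8.32 and 8.52. Sample 1 was the lowest, and the highest sample exceeded it by a factor of 1.57. The next enzymes ran the other way in sample 1. Hsd17b7, for the ketoreductase of the same demethylation, had 8.25, 8.05 and 7.91. Sc5d, for a late sterol desaturase, had 8.57, 8.34 and 8.46, and it missed the raised threshold in sample 2. In both genes sample 1 was the highest.

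Sqle, for the epoxidase that is a rate-limiting step of sterol synthesis, had 8.10 in each sample, and Cyp51, for lanosterol demethylase, had 8.09 in each sample. Both lay less than 1 above the threshold. Lss, for lanosterol synthase, which acts between them, had 7.25 in each sample and was above the threshold on none of the arrays. Dhcr7, for the reductase that makes cholesterol from its direct precursor, had 7.81, 7.53 and 7.38. It passed in samples 1 and 2 and missed the threshold by 0.028 in sample 3, so its call was undecided at this precision. The genes just inside the threshold were Mvd and Msmo1, whose lowest sample passed it by 0.39 each. The 15 synthesis enzymes thus gave 12 above the threshold (80%, against 58.0% of all named genes). Above the raised threshold were 4, Hmgcs1, Fdps, Fdft1 and Nsdhl, a share of 26.7% that lay below the 32.7% of all named genes.

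Promoter sequences of the RefSeq annotation on GRCm38.p6 were searched for short letter patterns in the measured genes. The table gave 250 bases before to 50 after the annotated start, for 27 of the 33 measured genes and 12 of the 15 enzymes. The letters of the sterol regulatory element, TCACNCCAC on either strand, occurred in the promoter of Hmgcs1 alone, 1 of the 27 genes (3.70%), against 1.44% of 27025 genes. With the looser letters TCACNCNAC, which include those letters, Nsdhl was added, giving 2 of 27 (7.41%), against 3.15%. No promoter of Fdps, Fdft1 or Sqle was searched. The letters CCAAT, those bound by the factor NF-Y, occurred on either strand in 20 of 27 genes (74.1%), against 41.1% of all genes, and GGGCGG, the GC box, in 21 of 27 (77.8%), against 38.2%. Genes with several listed starts have more chances of a match, and the 27 genes had 40 promoters. Counted per promoter, CCAAT occurred in 52.5%, against 37.4% of 32851 promoters, and GGGCGG in 62.5%, against 35.7%. Split by role after the matches were seen, CCAAT was present in 12 of 12 enzymes and in 8 of 15 other genes, and GGGCGG in 11 and 10. A match is only a description of letters, and none of these counts carries a test.

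The 250 bases before the start are printed, 5′ to 3′, for the 2 enzymes that held sterol element letters and for the 2 enzymes furthest below the threshold. Capitals mark TCACNCNAC, CCAAT and GGGCGG on either strand, so that ATTGG and CCGCCC are the reverse complements. The regions, all on the plus strand of GRCm38.p6, were chr13:119690101-119690350 for Hmgcs1, chrX:72918271-72918520 for Nsdhl, chr13:8885356-8885605 for Idi1 and chr10:76531355-76531604 for Lss.
Hmgcs1: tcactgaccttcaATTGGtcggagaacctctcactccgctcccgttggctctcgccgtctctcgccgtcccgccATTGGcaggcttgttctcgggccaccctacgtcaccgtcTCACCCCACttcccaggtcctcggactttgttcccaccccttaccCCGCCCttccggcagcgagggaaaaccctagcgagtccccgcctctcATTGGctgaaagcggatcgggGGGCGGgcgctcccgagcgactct
Nsdhl: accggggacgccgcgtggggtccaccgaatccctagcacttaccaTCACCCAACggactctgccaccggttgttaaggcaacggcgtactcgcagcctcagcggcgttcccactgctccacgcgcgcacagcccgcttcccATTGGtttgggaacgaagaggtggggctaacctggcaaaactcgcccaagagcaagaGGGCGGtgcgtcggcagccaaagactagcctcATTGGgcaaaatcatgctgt
Idi1: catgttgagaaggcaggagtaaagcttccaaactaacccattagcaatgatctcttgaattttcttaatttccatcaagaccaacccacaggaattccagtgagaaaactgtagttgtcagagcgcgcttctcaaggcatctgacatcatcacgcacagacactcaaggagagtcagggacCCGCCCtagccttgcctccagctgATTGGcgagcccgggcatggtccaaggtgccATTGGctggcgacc
Lss: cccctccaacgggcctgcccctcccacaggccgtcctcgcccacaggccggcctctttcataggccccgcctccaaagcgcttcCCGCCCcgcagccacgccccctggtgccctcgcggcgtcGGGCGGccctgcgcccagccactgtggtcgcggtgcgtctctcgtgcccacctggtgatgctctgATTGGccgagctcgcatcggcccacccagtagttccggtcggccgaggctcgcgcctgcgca

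In Hmgcs1 the sterol element letters began 137 bases before the start, between CCAAT matches that began 176 and 45 bases before it. In Nsdhl the looser letters began 205 bases before the start and the CCAAT matches 109 and 20 bases before it. Idi1 and Lss, whose probe sets were at background, held CCAAT and GGGCGG letters as well and no sterol element letters in this window. CCAAT and GGGCGG letters were thus found in enzymes on both sides of the threshold.

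**Figure D2:**
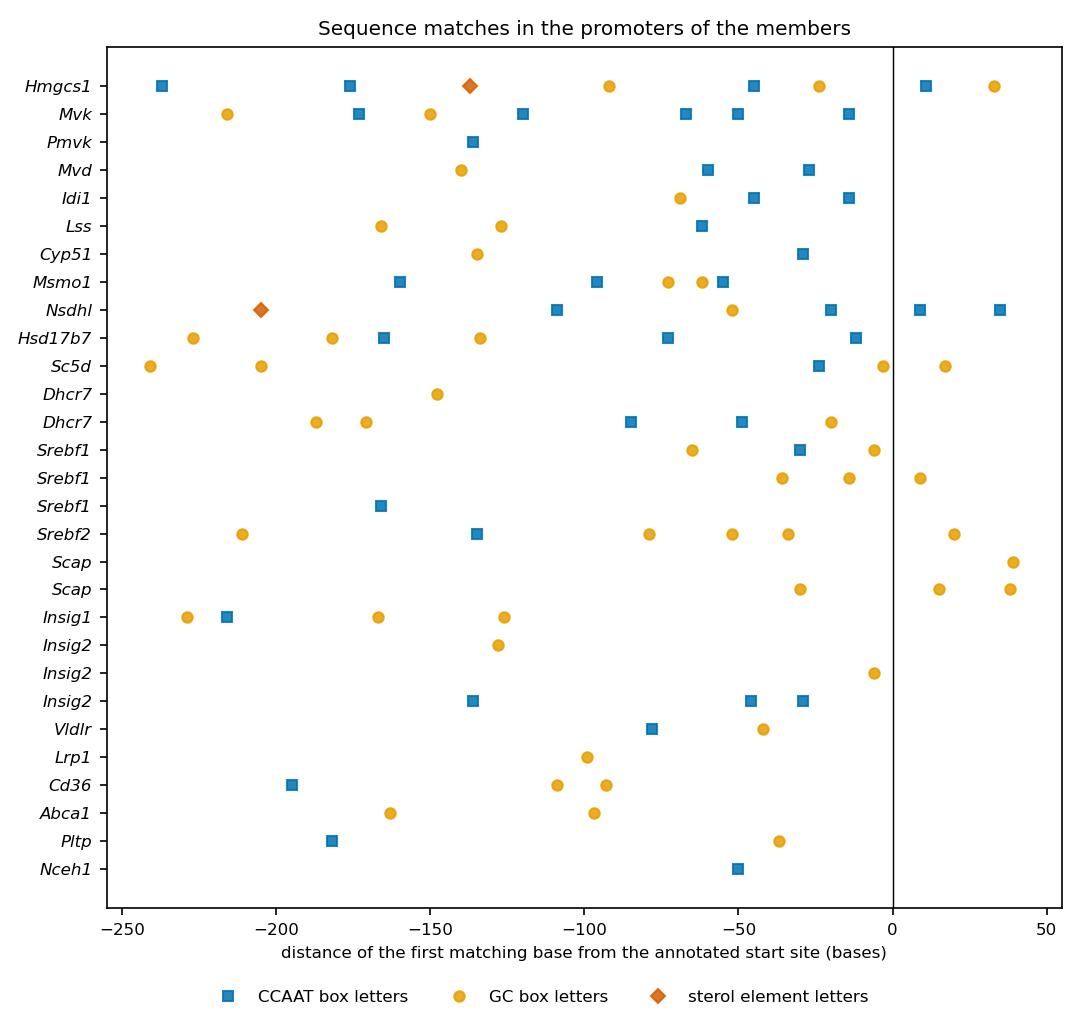
Positions of the first matching base relative to the annotated start site (x axis, in bases) in the 29 promoters, of 23 measured genes, that held a match. Squares are CCAAT, circles GGGCGG and diamonds TCACNCNAC letters on either strand, and repeated names are alternative starts of a gene. Diamonds appear in Hmgcs1 and Nsdhl alone.

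The sterol-sensing genes were the role group in which all measured members, 5 of 5, lay above the raised threshold in every sample. The share of all named genes above it was 32.7%. Srebf2, for the SREBP that mainly drives cholesterol synthesis, had 8.87 in each sample. Srebf1, whose products mainly drive fatty acid synthesis, had 8.70 in each sample. Scap, the escort protein, had 9.01, 9.07 and 9.07. Each of these genes varied by less than 0.1 between samples. Against the 99th percentile of the silent probe sets raised by 1, a stricter setting, Insig2 alone of the 5 remained above.

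Insig1, for a retention protein that is itself a target of SREBP, had 8.83, 8.83 and 8.84. Insig2, for the retention protein that responds less to SREBP, had 10.24 in each sample to 2 decimals. The lowest Insig2 value lay 2.76 above its threshold, and the lowest Insig1 value 1.35 above its own. These are different probe sets, so the distance is not a ratio of the transcripts.

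Among the receptors 3 of 5 lay above the threshold and 2 above the raised threshold, shares of 60% and 40% that were near the 58.0% and 32.7% of all named genes. Lrp1, for the large endocytic receptor that takes up lipoprotein remnants carrying apolipoprotein E, had 11.07, 10.88 and 10.90. All samples lay more than 3 above the threshold. Vldlr, for the receptor of very low density lipoprotein, had 9.33 in each sample.

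Scarb1, for the receptor of high density lipoprotein, had 8.27 in each sample, above the threshold and below the raised one. Lrp8, for the apolipoprotein E and reelin receptor, had 7.46 in each sample. That value passed the threshold of sample 3 and missed that of sample 1 by 0.022, so Lrp8 lay at the threshold itself. Cd36, for a scavenger receptor and fatty acid transporter of macrophages, fat cells and some endothelium, had 7.03, 6.91 and 7.05 and was above the threshold on none of the arrays.

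In the efflux and apolipoprotein group 3 of 5 genes lay above the threshold and 2 above the raised threshold, again near the shares of all named genes. Apoe, for the apolipoprotein that ligates Lrp1 and Vldlr, had 10.89, 10.63 and 10.85. Every sample lay more than 3 above the threshold, and sample 2 was the lowest. Abcg1, for the transporter that moves cholesterol to high density lipoprotein, had 8.91 in each sample. Abca1, which loads cholesterol onto lipid-poor apolipoprotein A-I, had 8.34, 8.55 and 8.34 and passed the raised threshold in sample 2 alone.

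Macrophages are a known source of Apoe and Abca1 transcripts, and their markers were measured beside them. Of the 14 macrophage markers 5 lay above the threshold. The summed signal of all 14, turned back from log2, was 6249.5, 5651 and 5899.6. Mrc1 made up most of this sum in every sample, and the sum also took in the markers not above the threshold. Mrc1, for the mannose receptor, had 11.81 ± 0.10, and Cd14, for an endotoxin co-receptor, 9.35 ± 0.10. Cx3cr1, another macrophage marker, had 8.02, 8.02 and 8.03, above the threshold and below the raised one. Adgre1, which defines macrophages, had 5.56 in each sample, near the median of the silent probe sets (5.56, 5.57 and 5.56). The part of macrophages in the Apoe and Abca1 values was not tested. Apob, for the structural protein of liver and gut lipoproteins, had 6.72 in each sample and Apod, for a small lipocalin carrier, had 6.33, 6.35 and 6.38. Neither was above the threshold on any array.

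Lpl varied the most between samples. The gene, for the lipase that releases fatty acids from circulating triglyceride at the capillary wall, had 11.09, 10.33 and 11.34. Sample 3 exceeded sample 2 by 1.01, a factor of 2.01, and all samples still lay more than 2 above the threshold. Pltp, for the plasma phospholipid transfer protein, had 9.45, 9.45 and 9.76, with sample 3 the highest. Nceh1, for a hydrolase of cholesterol esters, had 7.01, 7.06 and 7.01 and was above the threshold on none of the arrays.

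Fat cells and capillary endothelium bear on Lpl in the intact kidney, and their markers were split as to the lowest sample. Of the 15 endothelial markers 4 had 1 value on all arrays, and of the other 11 sample 2 alone was lowest in 4, sample 1 in 3 and sample 3 in 2, with 2 ties. Of the 7 adipocyte markers sample 2 alone was lowest in 1, as were sample 1 and sample 3, and the rest were tied or had 1 value. Fabp4, for a fatty acid binding protein of fat cells and endothelium, had 8.22, 7.65 and 8.45, in the same order as Lpl. Of the endothelial genes Eng had 11.32, 10.98 and 11.21, lowest in sample 2, and Tek 10.90, 10.76 and 10.67, lowest in sample 3. Ehd3 had 10.53, 10.14 and 10.58, Emcn 10.31, 10.23 and 10.59, and Ptprb 9.27, 9.25 and 9.32. Ehd3, Emcn and Ptprb, chosen after their values were seen, ran in the same order as Lpl, and the other endothelial markers did not. Pecam1 had 7.55, 7.64 and 7.64 and Cdh5 7.61, 7.69 and 7.69, both lowest in sample 1. Flt1 had 8.72, 8.72 and 9.04, Plvap 9.33, 9.39 and 9.33, and Esam 8.57, 8.57 and 8.49. These genes, too, were chosen after their values were seen. Cd34 had 11.988, 11.996 and 11.996, and Sox17 had 6.58 in each sample. The summed signal of the 7 adipocyte markers was 1381, 1259 and 1408, and that of the 15 endothelial markers 14676, 13603 and 14687. Adipoq, which defines fat cells, had 5.17 ± 0.02, and its values did not reach the median of the silent probe sets. Pparg, another adipocyte marker, had 8.82, 8.74 and 8.74, above the raised threshold. Retn had 7.69 in each sample, above the threshold and below the raised one. Gpihbp1, for the endothelial anchor of the lipase, chosen after its values were seen, had 7.93, 7.93 and 7.96. The part of these cells in the Lpl difference was not tested.

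A range between samples of at least 0.5 was reached by Lpl and Msmo1, 2 of 33 genes (6.06%), against 3.43% of all named genes. Among genes above the threshold these were 2 of 25, against 4.34%. A count this small does not set the list apart from that share. Without sample 1 or sample 3 Lpl alone kept such a range, and without sample 2 Msmo1 alone did. Between 0.25 and 0.5 lay Dhcr7 (0.44), Nsdhl (0.37), Hsd17b7 (0.34), Pltp (0.31), Fdps (0.28) and Apoe (0.26).

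The order of the samples depended on which genes were counted. Of the 12 genes with 3 different values, 8 were highest in sample 1, 0 in sample 2 and 4 in sample 3, while the shares over all named genes of this kind were 35.2%, 27.8% and 37.0%. Sample 2 was the lowest in 8 of the 12, against 35.3% of all named genes of this kind, and samples 1 and 3 in 2 each, against 37.9% and 26.7%. Pmvk, Fdps, Nsdhl, Sc5d, Lrp1 and Apoe were highest in sample 1 and lowest in sample 2, 6 of 12, against 18.7%. The 7 genes with the same value on exactly 2 arrays ran otherwise. Sample 1 was lowest or tied for lowest in 6, sample 2 in 3 and sample 3 in 2. Sample 3 was highest or tied for highest in 5, sample 2 in 4 and sample 1 in 1. Among the 7 synthesis enzymes with 3 different values, 6 were highest in sample 1, and Msmo1 was lowest there. All these differences come from the same 3 arrays and are given without a test. For the 19 genes whose values differed at all, the median deviation from the gene's mean was 0.035, -0.043 and 0.0073 in samples 1, 2 and 3, against -0.0012, -0.0014 and 0.0021 over all named genes whose values differed.

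**Figure D3:**
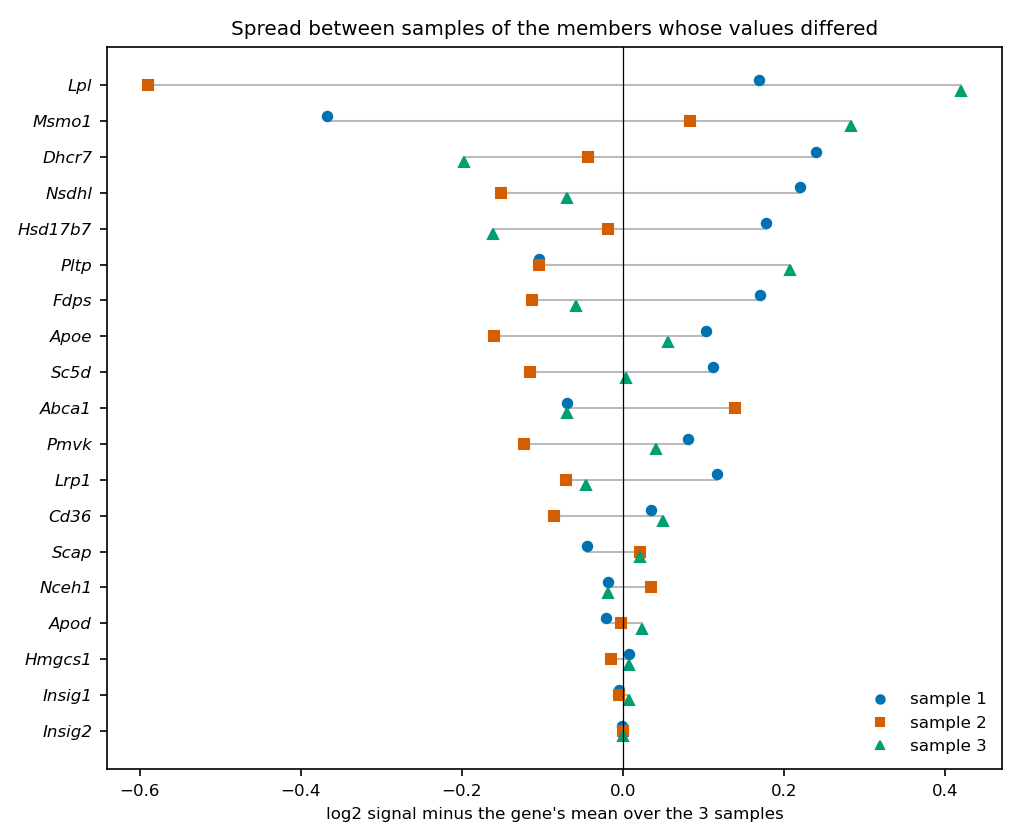
Log2 signal minus the gene's mean over the 3 samples (x axis) for the 19 genes whose values differed between samples, ordered by range. Circles, squares and triangles are samples 1, 2 and 3, and grey lines join the lowest and highest. Lpl was lowest in sample 2, while Msmo1 was lowest in sample 1.

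Other genes of the same pathways, 97 listed and 83 measured, gave 62 (74.7%) above the threshold and 27 (32.5%) above the raised one. The first share was close to the 75.8% of the 33 genes and above the 58.0% of all named genes. The second share was close to the 32.7% of all named genes and below the 45.5% of the 33 genes. In further synthesis genes 9 of 11 (81.8%) lay above the threshold and 6 (54.5%) above the raised one. The cytochrome b5 reductase and cytochrome b5 genes Cyb5r3 at 11.36 ± 0.18 and Cyb5a at 10.24 ± 0.10, which pass electrons to sterol enzymes, and Ggps1 at 10.45 ± 0.14, which diverts farnesyl diphosphate to protein prenylation, led this set. Idi2, for a second isomerase, had 5.55 in each sample, so neither isomerase gene was above the threshold. Lbr, for the lamin B receptor with its own sterol reductase activity, chosen after its value was seen, had 9.65 in each sample.

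Of 9 further sterol-sensing genes, 8 (88.9%) passed the threshold, against 58.0% of all named genes, and 6 (66.7%) the raised one, against 32.7%. Rnf145 at 9.81 ± 0.03, Mylip at 9.56 ± 0.13 and Rnf139 at 9.18 led this set. Rnf145 and Rnf139 encode ubiquitin ligases that act on the sterol machinery of the endoplasmic reticulum, and the Mylip product degrades lipoprotein receptors. Spring1, a regulator of SREBP processing, had 7.32 and was not above the threshold.

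Further receptors gave 10 of 16 above the threshold (62.5%, against 58.0% of all named genes) and 3 above the raised one (18.8%, against 32.7%). These 3 were the Wnt co-receptor genes Lrp6 at 10.46 and Lrp5 at 9.36, and Lrpap1 at 10.08 ± 0.11, for the chaperone of the Lrp family that includes Lrp1. The scavenger receptor gene Olr1 had 5.30 ± 0.04. The macrophage scavenger receptor gene Msr1, chosen after its value was seen, had 5.36 in each sample, at background like Cd36.

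Genes of efflux and transport inside the cell gave 15 of 18 above the threshold, 83.3% against 58.0% of all named genes. Above the raised threshold lay 9 of them, 50% against 32.7%. The lysosomal cholesterol exit genes Npc2 at 9.73 ± 0.08 and Npc1 at 9.12, and the lysosomal acid lipase gene Lipa at 9.38, led this set, and Cyp7b1, for an oxysterol hydroxylase, had 5.66 ± 0.12. Other apolipoproteins and plasma lipases gave 9 of 16 above the threshold (56.25%) and 0 above the raised one. The cholesterol acyltransferase gene Lcat at 8.59 ± 0.18, the lipase maturation factor gene Lmf1 at 8.44 and the Lpl inhibitor gene Angptl4 at 8.31 ± 0.18 had the highest means. Lcat, at 8.38, 8.72 and 8.67, passed the raised threshold in samples 2 and 3, Lmf1 in sample 3 and Angptl4 in sample 1. Apoh had 6.10. Apoe was the apolipoprotein gene that passed the raised threshold among those measured in either list, beside Apob, Apod and the further apolipoprotein genes that did not.

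**Figure D4:**
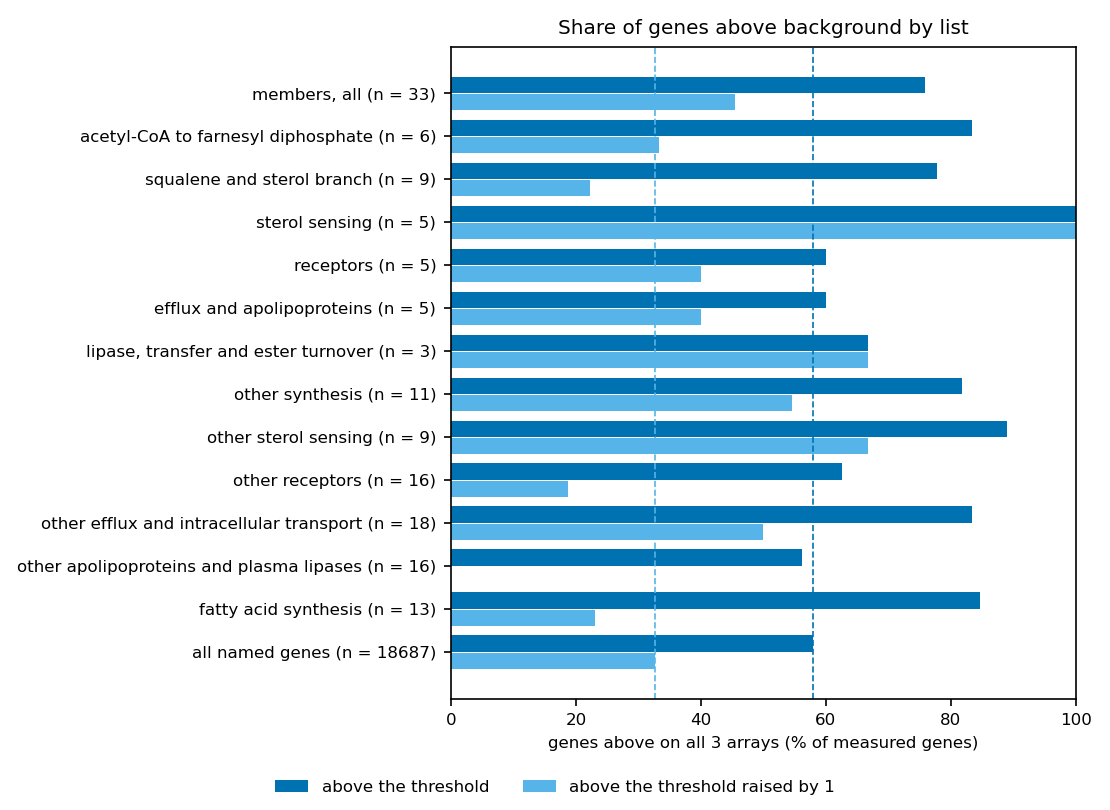
Percentage of measured genes above the threshold (dark bars) and above the threshold raised by 1 (light bars) on all 3 arrays, for the 33 genes, their role groups, the further pathway lists and all named genes at the bottom. Dashed lines mark the shares of all named genes, 58.0% and 32.7%. The sterol-sensing group reached 5 of 5 on both calls, and the further apolipoproteins and plasma lipases had 0 above the raised threshold.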

How the data were processed

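Total RNA of the 3 sorted samples was amplified with WT-Ovation Pico, labelled with biotin and hybridised to 1 Affymetrix array each, per the labels. The deposited values are log2 probe set signals. The submitters' processing notes name Affymetrix Expression Console. Its version, and how background was corrected and probes were summarised, is not given in the sources used here. Base 2 was inferred from the values, which run from 3.31 to 14.39. The number of arrays limits the precision.

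The values were used as deposited, with Python 3.11.15. Of 35557 probe sets, 21789 had 1 gene symbol in the platform annotation, 1621 had several and named no gene, and 12147 were not listed; 21698 symbols were updated by Entrez number through RefSeq (GRCm38.p6). The code for the calls was run on simulated data with planted genes far above background. That run does not show how well genes near the threshold are called. With 1 group no contrast was fitted. The text names all 33 measured genes and, of each further pathway list, the 3 highest and the lowest mean, other names being marked. The same rule held for endothelial, macrophage and adipocyte markers. Igfbp5 (12.71 ± 0.20) completes it for mesangial markers, while podocyte, proximal tubule and hepatocyte markers were only counted. The genes and lists were chosen with earlier results of these data known. Alternatives covered the percentile, reference families, arrays, probe set and range.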

Additional observations from a re-analysis of the deposited data

How the results depend on the processing

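No paired analysis was possible because there was 1 group. Of 147 recomputed counts, 127 stayed within 1.5 times the reported count. Some could hardly move, as Idi1 and Fdft1 alone of the 33 genes had a second probe set. With the 99th percentile as threshold 15 of 33 genes remained above it (45.5%, against 35.3% of all named genes). Above it raised by 1 lay 5 of 33, a smaller share than the 17.2% of all named genes. The higher share of the list above the raised threshold thus did not hold under this setting. With the threshold raised by 1 the first count was also 15, because this setting repeats the raised call. Under both settings farnesyl diphosphate synthesis fell to 2 of 6 genes, the sterol branch to 2 of 9, the further receptors to 3 of 16, further transport genes to 9 of 18 and fatty acid synthesis to 3 of 13. The further apolipoproteins and lipases came to 2 of 16 at the 99th percentile and 0 at the raised threshold. These counts are lower because a stricter threshold passes fewer genes. The count of sterol-sensing genes above the threshold stayed at 5 of 5 under each of the alternatives run. None of these genes had a second probe set, so the probe set alternatives could not change that count. With the 90th percentile 28 genes passed, adding Lss, Dhcr7 and Lrp8. A range of at least 0.25 was reached by 8 genes (11.5% of all named genes) and of at least 1 by Lpl alone, 1 gene (0.615%). Leaving out a sample gave 25 to 26 genes above the threshold, 15 to 16 above the raised threshold, and 1 gene with a range of at least 0.5 in each case. Dhcr7 passed without sample 3, with the mean of the arrays and with olfactory receptors alone as reference, and Lrp8 with the last 2. Leaving out a sample moved no member mean by more than 0.30.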

Other observations

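Fatty acid synthesis, the pathway driven mainly by the products of Srebf1, was mostly above the threshold and close to it. Of 13 measured genes 11 lay above the threshold (84.6%, against 58.0% of all named genes) and 3 above the raised threshold (23.1%, against 32.7%). The elongase gene Elovl5 had 9.01, 9.02 and 9.01 in samples 1, 2 and 3, the desaturase gene Scd2 8.93 in each sample, and the desaturase gene Fads1 8.77, 8.59 and 8.82. Me1, for the malic enzyme that supplies NADPH, had 7.42 in each sample and was not above the threshold on all arrays. Scd1, for the other stearoyl-CoA desaturase measured, chosen after its values were seen, had 8.63, 8.12 and 8.23, with a range of at least 0.5 and sample 1 the highest.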
